A study of Mus musculus with 12 samples.

Results

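Pparg and 3 genes known as its targets in fat cells, Cd36, Fabp4 and Cfd, were followed through the livers of obese mice given 4-hydroxyphenylacetic acid (4-HPAA). They were picked by symbol, by matching the Ensembl transcript IDs of the deposited table to GENCODE M21, and all 4 are present as 1 row each among 13267 genes. The livers came from C57BL/6 mice with high-fat-diet obesity and hepatic steatosis. For 6 weeks, 6 of them were given subcutaneous pellets of 4-HPAA, a small phenolic acid that microbes of the gut make from plant polyphenols, and the other 6 were given the scaffold control. Diet, obesity and strain were thus common to all 12 samples, and lean animals were not analysed here. The labels number the livers of each group from 1 to 6 and do not name separate animals, cages or batches, so the spread behind each p-value is that between these libraries, which may be technical. Age, sex and batch are not stated there. The design compares liver transcription after treatment with and without the compound.

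PPAR-gamma, the product of Pparg, is a nuclear receptor that binds DNA together with a retinoid X receptor and switches on genes for taking up and storing fatty acids. It is best known as the master factor of fat cells. In the lean mouse liver its level is low, and in fatty livers of obese mice it is raised together with genes that are otherwise typical of adipose tissue. Among its targets, Cd36 encodes a membrane protein that brings long-chain fatty acids into the cell. Fabp4 encodes the fatty acid-binding protein of adipocytes, macrophages and capillary endothelium, which carries fatty acids in the cytosol. Cfd encodes adipsin, or complement factor D, a serine protease secreted in large amounts by mouse adipocytes that cleaves factor B in the alternative complement pathway.

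The 4 genes lie on different chromosomes of GRCm38. Pparg is at chr6:115360951-115490399 on the plus strand, Cd36 at chr5:17781690-17888801 on the minus strand, Fabp4 at chr3:10204088-10208576 on the minus strand and Cfd at chr10:79890853-79892655 on the plus strand. No exon of another gene overlaps theirs, and the 1 gene that overlaps a member at all, the antisense gene Gm44079 within Pparg, shares 0 exon bases with it. Since PPAR-gamma and its partner bind a direct repeat of AGGTCA with 1 base between the copies (DR1, searched as AGGTCANAGGTCA on both strands), the promoter windows of 3 start sites are shown. They run from 250 bases before to 50 after the RefSeq start (GRCm38.p6), 5′ to 3′ along the gene, with the best DR1 match in capitals.
Pparg (chr6:115421816-115422115, plus strand, the start of Pparg-201, which opens the isoform typical of fat cells): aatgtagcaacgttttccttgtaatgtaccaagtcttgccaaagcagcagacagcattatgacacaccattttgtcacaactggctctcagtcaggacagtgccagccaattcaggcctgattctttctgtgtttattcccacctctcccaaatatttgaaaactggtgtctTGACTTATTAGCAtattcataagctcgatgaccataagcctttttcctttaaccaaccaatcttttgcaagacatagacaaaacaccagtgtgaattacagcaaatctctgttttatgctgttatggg
Cd36 (chr5:17835847-17836146, minus strand): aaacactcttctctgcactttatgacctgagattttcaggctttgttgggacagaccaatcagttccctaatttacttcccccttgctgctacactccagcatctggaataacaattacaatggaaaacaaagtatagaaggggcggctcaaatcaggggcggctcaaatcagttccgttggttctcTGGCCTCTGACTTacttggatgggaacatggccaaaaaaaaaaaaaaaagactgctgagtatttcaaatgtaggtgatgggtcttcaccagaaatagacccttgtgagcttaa
Cfd (chr10:79890603-79890902, plus strand): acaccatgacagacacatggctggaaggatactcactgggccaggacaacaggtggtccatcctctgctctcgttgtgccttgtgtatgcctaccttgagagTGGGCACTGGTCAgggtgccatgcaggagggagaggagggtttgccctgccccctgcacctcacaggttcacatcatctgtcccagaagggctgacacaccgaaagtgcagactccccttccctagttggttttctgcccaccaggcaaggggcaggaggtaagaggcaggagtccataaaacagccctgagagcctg
The Cd36 window holds the closest match, 10 of the 12 fixed letters, beginning 63 bases before the start and reading AAGTCAGAGGCCA on the opposite strand. Of 32851 windows of this length, 3.86% hold a match at least as good. The best match of the Cfd window has 9 letters, as have 24.6% of windows or better, and that of the Pparg-201 window has 8, which 79.8% of windows reach. These matches are letters, not binding data. No GENCODE transcript of Cd36 starts within 100 bases of the RefSeq start used. RefSeq windows were matched for 3 of the 4 genes, and Fabp4 was not among them. The copy AGGTCA alone, on either strand, occurs once in the Cd36 window, in neither other window shown, and in 16.3% of all windows. Pparg has 2 further RefSeq windows, at chr6:115360894-115361193 and chr6:115362099-115362398, the second at the start of Pparg-204, under which the table lists the gene. Each holds 1 AGGTCA and, as its best DR1 match, 8 letters.

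Before the members, the libraries: the deposited values are read counts scaled by 1 factor per library, summing to 22869813 to 25255447, from an estimated 22389551 to 26921499 reads. The first principal component, with 31.5% of the variance, did not fully separate the groups. On it, controls spanned −2.02 (replicate 6) to 31.5 (replicate 4). Inside that span fell 4-HPAA replicates 4 (10.9) and 6 (1.15), while replicates 1, 2, 3 and 5 were lower, from −37.8 to −12.2. Along the second principal component, with 20.6% of the variance, 4-HPAA replicate 3 stood apart at −56.4, while the other 11 libraries lay between −7.52 and 17.0. In limma, 0 of 12720 genes tested had a Benjamini-Hochberg adjusted p under 0.05 (0% of genes), and the smallest adjusted p was 0.0809. Without adjustment, 14.8% of genes had a p under 0.05, 7.56% lower and 7.26% higher in 4-HPAA livers. All 4 members passed the filter on low values.

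All 4 genes had lower mean levels in 4-HPAA livers, and none of the 4 passed over all genes tested. Cfd differed most, with a geometric mean 6.29-fold below that of the controls. Cd36 was 2.28-fold, Pparg 1.61-fold and Fabp4 1.46-fold below. Every one of the 6 4-HPAA livers lay below the arithmetic mean of the controls for each of the 4 genes. For Fabp4 this was by little in replicate 4, at 245 beside a control mean of 246, and that liver lay above the control mean of log2 values. All 4 had an unadjusted p under 0.05, where 14.8% of all genes do in either direction and 7.56% on the lower side. The members were chosen with earlier results of these libraries known, so this count is a description.

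**Figure D1:**
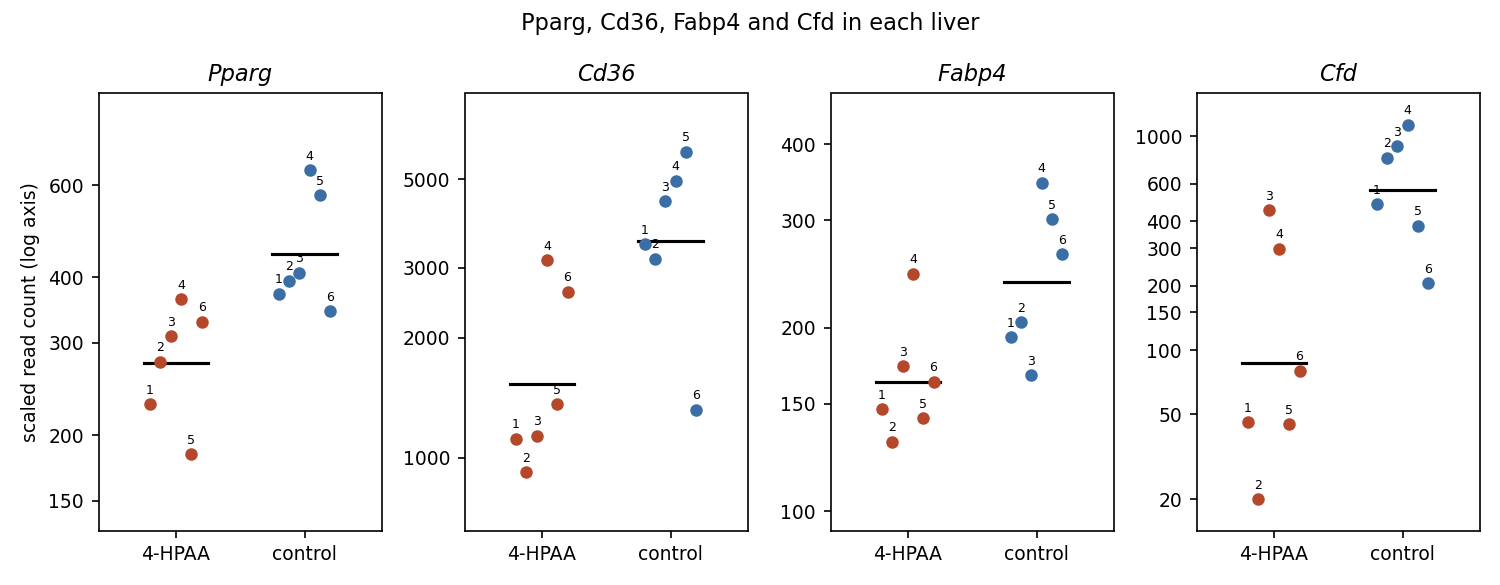
Scaled read count (log axis) of Pparg, Cd36, Fabp4 and Cfd in each liver, 4-HPAA on the left and control on the right, with replicate numbers and the geometric mean as a bar. The groups overlap for each gene: 4-HPAA replicate 4 and control replicate 6 bring Pparg and Cd36 together, and 4-HPAA replicate 3 is the highest of its group for Cfd, at 450.

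Pparg, the receptor, ranged from 184 over a median of 292.5 to 363 in 4-HPAA livers, and from 345 over 401 to 641 in control livers, in scaled reads. Only the highest 4-HPAA liver, replicate 4, reached into the control range, and only control replicate 6 lay below it. Means were 282 ± 66.3 with 4-HPAA and 456 ± 121 in controls (SD, n = 6 each), and the log2 difference was −0.69 ± 0.19 (SE; unadjusted p = 0.00239 and adjusted p = 0.161 in limma). The 95% interval runs from 1.22- to 2.13-fold lower. By unadjusted p Pparg ranked 187 of 12720 genes. An exact permutation test over all splits of the livers into 6 and 6 gave p = 0.00433 (two-sided). Reads of the receptor's different starts cannot be told apart, since the table holds 1 row for the gene, listed under Pparg-204.

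Ppara, the related receptor that drives fatty acid oxidation in hepatocytes, averaged 2708.5 ± 432 with 4-HPAA and 3033 ± 554 in controls (SD, n = 6 each), and the log2 difference was −0.16 ± 0.13 (SE; limma, unadjusted p = 0.25). The log2 ratio of Pparg to Ppara within each liver, which does not depend on how a library was scaled, was −3.28 ± 0.24 with 4-HPAA and −2.75 ± 0.36 in controls (SD, n = 6 each). Its difference was −0.53, lower than the control mean in 6 of 6 4-HPAA livers (exact permutation test, two-sided, p = 0.0173, and 0.0779 adjusted over the 9 such ratios planned).

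Among 34 genes listed as partners, coregulators and upstream factors of PPAR-gamma, 31 were tested, 14 with negative and 17 with positive differences, and their median difference was 0.00, beside −0.00 over all genes tested. It ran from −0.02 to 0.03 with each library left out in turn, on both sides of 0. With an unadjusted p under 0.05, 1 gene of the list (3.23%) was lower and 0 were higher, beside 7.56% and 7.26% of all genes. That gene was Zfp423, a factor of fat cell precursors, at 13.8 ± 3.37 with 4-HPAA and 25.2 ± 8.23 in controls (SD, n = 6 each). Its log2 difference was −0.79 ± 0.24 (limma, adjusted p = 0.193), at a level near the filter on low values. Among the next by p, on the higher side, were Stat5b, a transducer of growth hormone signals, at 0.17 ± 0.09, and the coactivators Ncoa1 at 0.15 ± 0.08 and Ep300 at 0.23 ± 0.13 in log2 difference. Rxra, the main dimer partner, was not analysed here.

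Cd36, the fatty acid translocase, ranged from 920 over a median of 1251.5 to 3136 in 4-HPAA livers, and from 1321 over 3916.5 to 5858 in control livers. The overlap came from few livers: 4-HPAA replicates 4 and 6, at 3136 and 2613, lay well above the other 4 of their group, and control replicate 6, at 1321, well below the other 5 of its own. Means were 1715 ± 924 and 3854.5 ± 1587 in 4-HPAA and control livers (SD, n = 6 each), and the log2 difference was −1.19 ± 0.38 (SE; limma, unadjusted p = 0.00804, adjusted p = 0.205). The 95% interval, 1.29- to 4.02-fold lower, is wide. The exact permutation test gave p = 0.0216 (two-sided). Within groups Cd36 varied more between libraries than 97.1% of genes tested, by residual SD.

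Other proteins of fatty acid uptake and binding were on both sides. Of 23 tested genes of that list, 13 had negative and 10 positive differences, with a median of −0.10. With an unadjusted p under 0.05, 4 (17.4%) were lower and 1 (4.35%) higher, beside 7.56% and 7.26% of all genes. Leaving out 4-HPAA replicate 3 gave a median of −0.00, and leaving out control replicates 5 or 6 gave −0.05 or −0.03. The lower ones were Acsl5, a fatty acyl-CoA synthetase (log2 difference −0.35 ± 0.09), the intestinal-type Fabp2 (−0.63 ± 0.18), Fabp1, the main fatty acid-binding protein of hepatocytes (−0.41 ± 0.14), and Vldlr, a lipoprotein receptor (−1.44 ± 0.54). Lrp1, another lipoprotein receptor, was the higher one at 0.29 ± 0.12. None passed over all genes tested (limma, adjusted p = 0.149 to 0.267 for these 5 genes).

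Fabp4 ranged from 130 over a median of 155 to 245 in 4-HPAA livers, and from 167 over 234 to 346 in control livers. Here 4-HPAA replicates 3 and 4 lay within the control range, and the other 4 lay below the lowest control. Its means were 167 ± 41.3 with 4-HPAA and 246 ± 69.5 in controls (SD, n = 6 each), and the log2 difference was −0.54 ± 0.19 (SE; limma, unadjusted p = 0.013, adjusted p = 0.22). The 95% interval was 1.10- to 1.93-fold lower, and the exact permutation test gave p = 0.0346 (two-sided). The close relative Fabp5, expressed in macrophages and epidermis, was at 442.5 ± 339 with 4-HPAA and 435 ± 313 in controls (SD, n = 6 each; log2 difference −0.06 ± 0.49, limma unadjusted p = 0.909). The table lists Fabp4 under Fabp4-202, annotated as a transcript with a retained intron, and the sources used here do not say whether reads were counted per gene or per transcript.

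Cfd had the lowest log2 difference of all 12720 genes tested. It ranged from 20 over a median of 63 to 450 in 4-HPAA livers, and from 205 over 637.5 to 1133 in control livers. The 4-HPAA livers spread over a 22.5-fold range: replicates 1, 2, 5 and 6 lay at 46, 20, 45 and 80, below every control, and replicates 3 and 4 at 450 and 298, within the control range. The log2 difference was −2.65 ± 0.73 (SE; limma, unadjusted p = 0.00337, adjusted p = 0.183), with a 95% interval of 2.10- to 18.9-fold lower. Means were 156.5 ± 176 and 649 ± 350 in 4-HPAA and control livers (SD, n = 6 each), so the SD with 4-HPAA exceeded the mean. The exact permutation test gave p = 0.013 (two-sided). By residual SD, 99.7% of genes tested varied less within groups. Leaving out 4-HPAA replicate 3, which stood apart, the difference was −3.12 (limma, adjusted p = 0.127).

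Genes of the substrate and of other proteins of the alternative complement pathway were mostly on the higher side. Cfb, which encodes factor B, averaged 36447 ± 5410 with 4-HPAA and 27496 ± 1885 in controls (SD, n = 6 each), a log2 difference of 0.40 ± 0.10 (limma, adjusted p = 0.142). C3, the central complement component, was at 0.38 ± 0.12 and Cfi, the protease that inactivates it, at 0.27 ± 0.09 in log2 difference. Hc, which encodes component C5, was at 0.66 ± 0.15, and Masp1, whose MASP-3 product activates pro-factor D, at 0.16 ± 0.08. Over 14 tested genes of the pathway, Cfd not counted, 10 differences were positive and 4 negative, with a median of 0.06. That median rests on few libraries: leaving out 4-HPAA replicate 3 gave 0.23, and leaving out 4-HPAA replicates 1 or 5 gave 0.03 or 0.04. Leaving out control replicates 1 or 6 gave 0.11 or 0.15. With an unadjusted p under 0.05, 4 were higher, 28.6% of the list beside 7.26% of all genes, and 0 lower. None passed over all genes tested, and whether Cfd and Cfb differ in their response was not tested.

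The groups overlapped for 4 of 4 genes, as they did for all but 0.66% of genes tested. Without control replicate 6, which had the lowest Pparg, Cd36 and Cfd of its group, 2 genes no longer overlapped, Pparg and Cd36. Without 4-HPAA replicate 4, the highest of its group for Pparg, Cd36 and Fabp4, 1 no longer overlapped, Pparg. These livers were singled out because they made the overlap, and the share of all genes without overlap was not counted with a liver left out. The counts are therefore descriptions. Control replicate 6 was also the lowest control, and 4-HPAA replicate 4 the highest of its group, along the first principal component. Their position is thus not particular to these 4 genes. With each library left out in turn, the log2 difference stayed negative in each of the 12 fits for each gene. It ran from −0.77 to −0.57 for Pparg, from −1.47 to −1.04 for Cd36, from −0.66 to −0.43 for Fabp4 and from −3.12 to −2.24 for Cfd (limma).

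**Figure D2:**
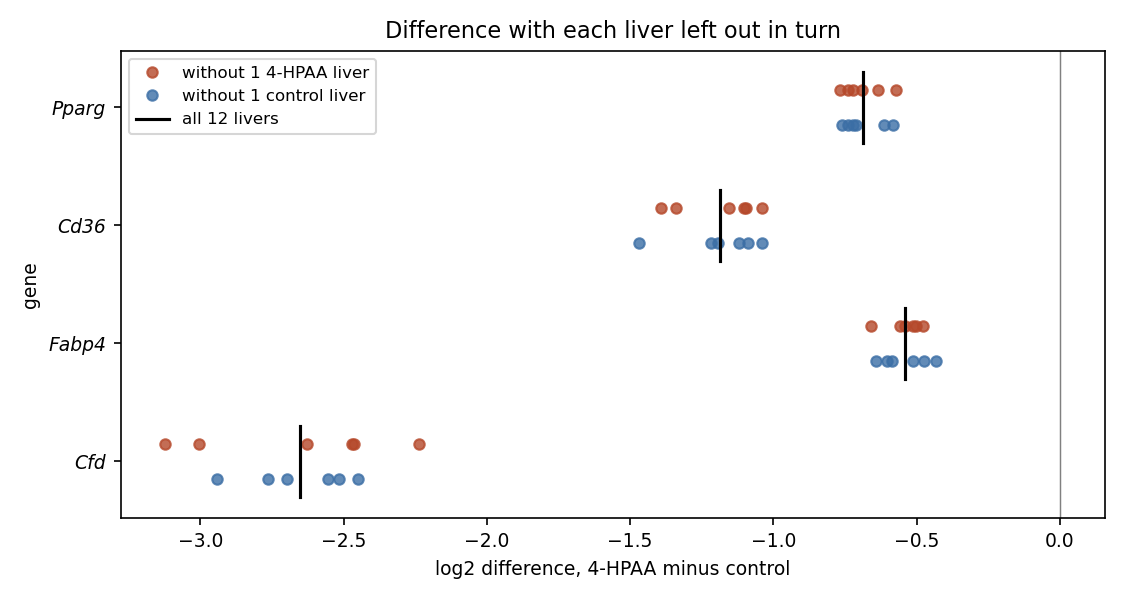
Log2 difference (4-HPAA minus control) of each gene with 1 4-HPAA liver (red, upper row) or 1 control liver (blue, lower row) left out in turn, and with all 12 (bar). All points lie below 0, and Cfd moves most, between −3.12 and −2.24.

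Levels can be compared between the genes only per length. Per kilobase of the first-numbered transcript of each gene, 4-HPAA livers averaged 569 ± 306 scaled reads for Cd36, 186 ± 46.1 for Fabp4, 170 ± 191 for Cfd and 159 ± 37.5 for Pparg (SD, n = 6 each). Control livers averaged 1278 ± 526 for Cd36, 704 ± 380 for Cfd, 274 ± 77.6 for Fabp4 and 258 ± 68.7 for Pparg (SD, n = 6 each). Cd36 thus had the highest mean in both groups, and Cfd stood second in controls. With 4-HPAA the SD of Cfd exceeded its mean, so its mean gives it no place relative to Fabp4 and Pparg. Cfd exceeded Pparg in 2 of 6 4-HPAA livers and in 6 of 6 controls, and Fabp4 in 2 of 6 and 5 of 6. Fabp4 and Pparg did not differ beyond their spread in either group: Fabp4 was above Pparg in 4 of 6 4-HPAA livers and 5 of 6 controls. With the length of all annotated exons, which counts the retained intron of Fabp4, Fabp4 lay below Pparg in all 12 livers, so this part of the order depends on the length used.

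Within the groups the genes followed one another only in part. Deviations of log2 values from the group mean were compared over the 12 livers for the 6 pairs of genes. Pparg and Fabp4 had Pearson r = 0.70 (permutation p = 0.0196) and Spearman rho = 0.54 (permutation p = 0.091), and r = 0.64 without the 2 livers farthest from the median of Pparg. Pparg and Cd36 had r = 0.67 (permutation p = 0.026) and rho = 0.70 (permutation p = 0.0191), and r = 0.75 without those 2. Adjusted over the 6 pairs, the smallest p was 0.078 for r and 0.115 for rho, so no pair passed. The lowest r over the 12 livers was that of Fabp4 with Cfd, at r = 0.39 and rho = 0.34 (permutation p = 0.199 and 0.29), and r = 0.03 without the 2 livers farthest from the median of Fabp4. Taken by group, r of this pair was 0.81 among 4-HPAA livers and −0.13 among controls, and r of Cd36 with Fabp4 was 0.78 among 4-HPAA livers and 0.12 among controls. With 6 livers in each group these are descriptions, and the difference between the groups was not tested.

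For each gene the 4 others with the highest Pearson r of log2 values over the 12 libraries were named, out of 10396 genes with a mean of at least 50. This likeness includes the difference between the groups, and it is given as a description. Closest to Pparg were Dpt, a small matrix protein (r = 0.97), Galnt15, a glycosyltransferase (0.96), Cavin1, a coat protein of caveolae (0.94), and Cidec, which fuses lipid droplets (0.93). Closest to Cd36 were Slc22a29 (0.98) and Slc22a27 (0.97) of the organic anion transporter family, the cytochrome P450 gene Cyp2c38 (0.97) and the retinol dehydrogenase Rdh16 (0.97). All 4 shared with Cd36 the higher values in 4-HPAA replicates 4 and 6 and the lowest control value in replicate 6: Slc22a27 lay at 174 and 86 in those 4-HPAA livers, and at 53 in that control. Closest to Fabp4 were Iqgap1, a cytoskeletal scaffold protein (0.92), St3gal2, a sialyltransferase (0.90), Tagln, an actin-binding protein of smooth muscle (0.89), and Ccdc80 (0.89). Closest to Cfd were Tsen34, a subunit of the tRNA splicing endonuclease (0.96), Ebpl (0.95), Islr (0.95) and Echdc3 (0.93). The 4 sets had no gene in common.

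**Figure D3:**
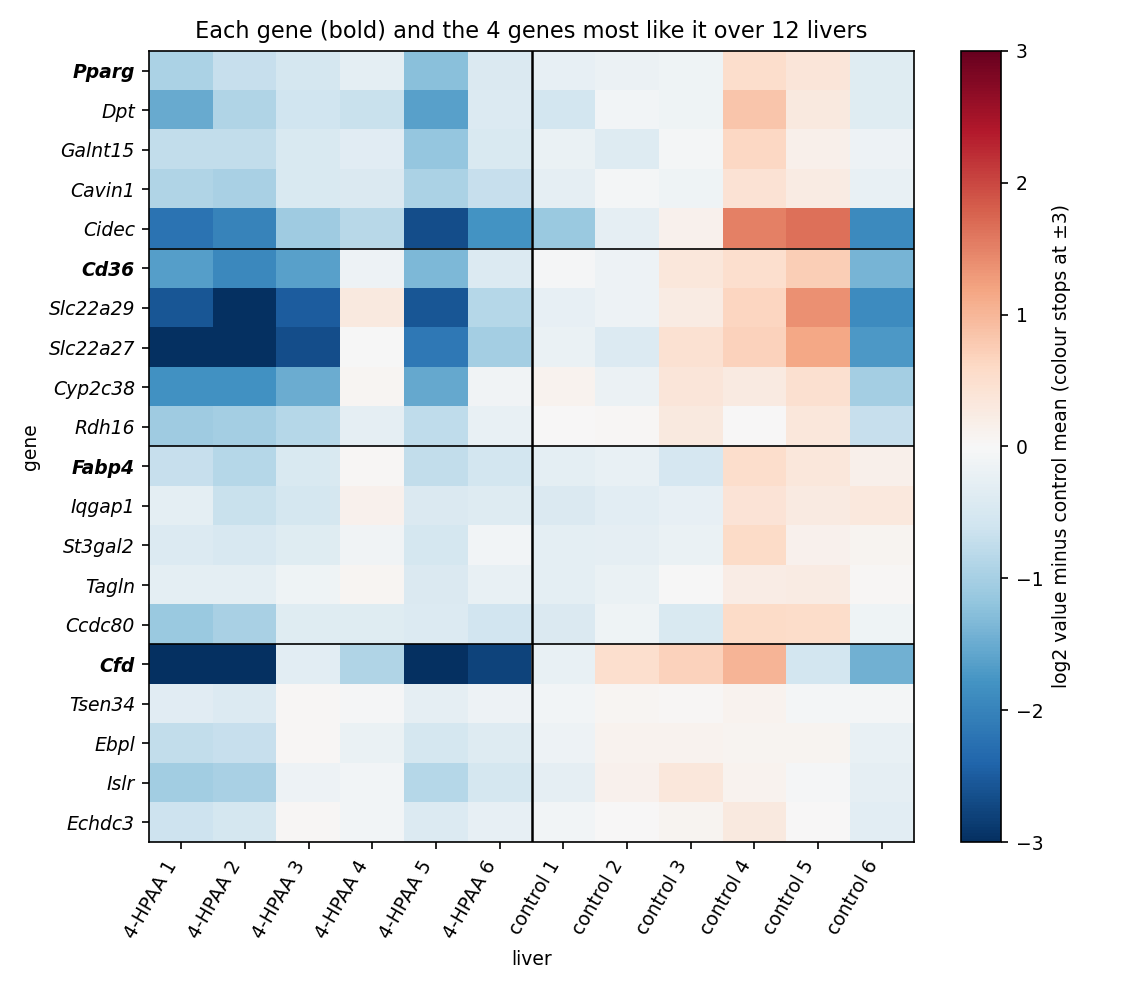
Log2 value of each gene (rows) in each liver (columns, 4-HPAA left) minus its control mean, for Pparg, Cd36, Fabp4 and Cfd (bold) and the 4 genes with the highest r with each. Cfd is pale in 4-HPAA replicate 3 and deep blue in replicates 1, 2, 5 and 6, and Cd36 is pale in replicates 4 and 6.

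Further genes listed as PPAR-gamma targets were mostly on the lower side, and whether this receptor acted on them here was not tested. Of 38 further target genes listed from fat cells and steatotic liver, 29 were tested, and 25 had negative and 4 positive differences. Their median was −0.26, beside −0.00 over all genes tested. With an unadjusted p under 0.05, 12 were lower, 41.4% of the list beside 7.56% of all genes, and 0 higher. None passed over all genes tested. Several of these genes had been seen to be lower in earlier work on these libraries, so the count is not independent evidence of direction.

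**Figure D4:**
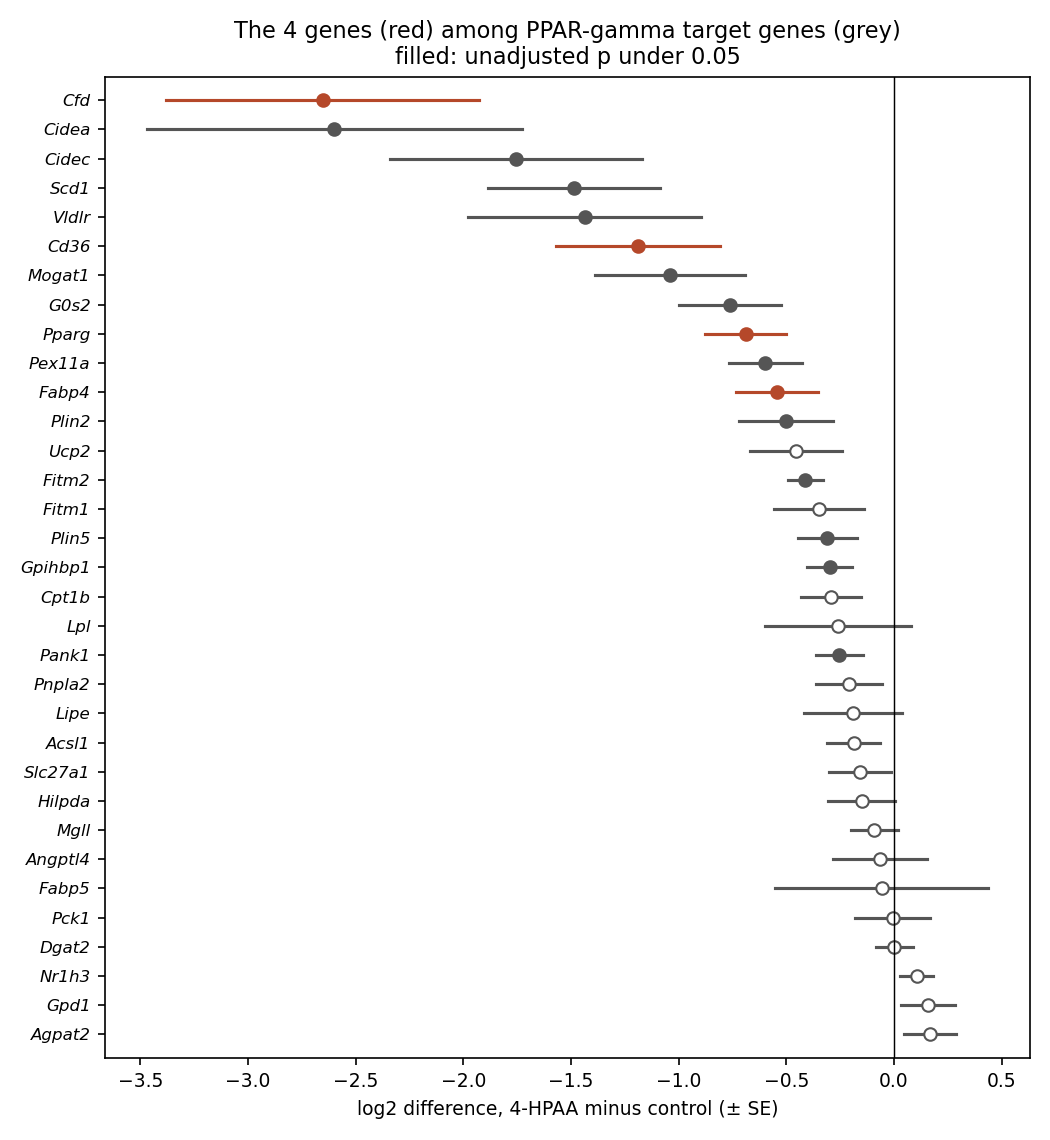
Log2 difference (4-HPAA minus control, ± SE) of Pparg, Cd36, Fabp4 and Cfd (red) and of 29 other PPAR-gamma target genes (grey), filled where the unadjusted limma p is under 0.05. Cfd and Cidea lie farthest to the left, at −2.65 and −2.60, and 4 grey genes lie to the right of 0.

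Cidea and Cidec had the lowest differences among these targets. Cidea, which like Cidec enlarges droplets by fusion and is typical of brown fat, had the third lowest difference of all genes tested, −2.60 ± 0.87 (limma, adjusted p = 0.206). It lay at 52 and 60 in 4-HPAA replicates 3 and 4, the same livers in which Cfd was high, and between 3 and 17 in the other 4. Control livers ranged from 14 to 636. Cidec averaged 199.5 ± 98.1 with 4-HPAA and 884.5 ± 764 in controls (SD, n = 6 each), a log2 difference of −1.76 ± 0.58 (limma, adjusted p = 0.207). Fitm2, which forms droplets, was the 1 gene of the list whose groups did not overlap, with 1792 to 2135 in 4-HPAA livers and 2236 to 2945 in control livers (−0.41 ± 0.08; limma, adjusted p = 0.103). Of genes for triglyceride and fatty acid handling, Scd1, the stearoyl-CoA desaturase, was at −1.49 ± 0.40, Mogat1, a monoacylglycerol acyltransferase, at −1.04 ± 0.35, G0s2, an inhibitor of triglyceride lipase, at −0.76 ± 0.24 and Pex11a, a peroxisome division factor, at −0.60 ± 0.17 in log2 difference. Other well-known targets were named after their values were seen. Plin2, the droplet coat protein, was at −0.50 ± 0.22 (limma, unadjusted p = 0.0377, adjusted p = 0.307). Nearer 0 were lipoprotein lipase Lpl at −0.26 ± 0.34 and its inhibitor Angptl4 at −0.06 ± 0.22 (limma, adjusted p = 0.768 and 0.92).

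Cd36 and Fabp4 are also expressed outside hepatocytes, and in whole liver fewer cells of a type and less RNA per cell cannot be told apart. Of 22 hepatocyte marker symbols 21 were matched and tested, with albumin (Alb) at 1511587 ± 224096 with 4-HPAA and 1954494 ± 121265 in controls (SD, n = 6 each). Of the 21, 8 (38.1%) were higher and 2 (9.52%) lower at an unadjusted p under 0.05, beside 7.26% and 7.56% of all genes. Of 20 adipocyte marker symbols 10 were matched, and the defining Adipoq, Plin1, Lep and Retn were not analysed here. A symbol without a match may be another name of a gene in the data. Leaving out Car3, Pck1 and Thrsp, which hepatocytes also express strongly, the adipocyte markers summed to 2024 to 4031 in 4-HPAA livers and 2543 to 5377 in controls. Over all 10, the median difference was −0.21, and −0.10 without 4-HPAA replicate 1. At an unadjusted p under 0.05, 2 genes (20%), Cidea and Cidec, were lower and 0 higher. Cidea and Cidec are also on the list of PPAR-gamma targets above, so this is not a separate observation.

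Macrophage and Kupffer cell markers (24 of 25 tested) summed to 10019 to 13585 in 4-HPAA livers and 8739 to 18547 in controls. At an unadjusted p under 0.05, 3 (12.5%) were lower (Itgax, Cx3cr1 and Ccr2), beside 7.56% of all genes, and 0 were higher. These 3 had low values. In that order, means were 19.8 ± 4.12, 17.0 ± 11.1 and 25.3 ± 16.8 with 4-HPAA (SD, n = 6 each). Control means were 46.5 ± 25.4, 34.5 ± 12.9 and 42.5 ± 20.2 (SD, n = 6 each). The median difference of this list was −0.07. The sign and size of that median depended on single libraries: it ran from −0.23 without control replicate 1 to 0.05 without control replicate 6, was −0.13 without 4-HPAA replicate 3, and stayed near its value only without 4-HPAA replicate 2. Endothelial markers (21 of 22) summed to 8670 to 12000 and 9801 to 11785 in 4-HPAA and control livers, with a median of −0.23. By the same threshold 8 (38.1%) were lower, among them Gpihbp1 and Pecam1, and 0 higher. Stellate cell markers (20 of 20) had the lowest median of these lists: all 20 differences were negative, with a median of −0.44. Of the 20, 10 (50%) were lower at an unadjusted p under 0.05. The sums were 8021 to 14975 in 4-HPAA and 12606 to 19734 in control livers. Vim (−0.82 ± 0.15), Col3a1 (−1.02 ± 0.22) and Reln (−0.65 ± 0.14) had the smallest p among them (log2 differences with SE), and none passed over all genes (limma, smallest adjusted p = 0.103). Their part in the members' differences was not tested beyond the ratios that follow.

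The 4 genes were also set against the mean log2 level of these markers in the same liver, which shifts the differences of all 4 by the same amount. Relative to macrophage markers the difference was −2.45 for Cfd (exact permutation test, two-sided, p = 0.026), −0.98 for Cd36 (p = 0.126), −0.48 for Pparg (p = 0.128) and −0.33 for Fabp4 (p = 0.128). Against endothelial markers it was −2.45 for Cfd (exact p = 0.0238), −0.99 for Cd36 (exact p = 0.0455), −0.49 for Pparg (exact p = 0.0584) and −0.34 for Fabp4 (exact p = 0.13). None passed after adjustment over the 9 ratios, the smallest adjusted p being 0.0779. Against stellate cell markers, a comparison added after the data were seen, Fabp4 was at −0.06, below the control mean in 3 of 6 4-HPAA livers (exact p = 0.619), and Pparg at −0.21, below it in 5 of 6 (exact p = 0.154). Cd36 was at −0.71 and Cfd at −2.18 on that scale (exact p = 0.0541 and 0.0173, and 0.109 and 0.0844 adjusted over 13 ratios). Fabp4 thus differed by less than the spread between livers once set against stellate markers, and the ratio does not say which cells carried the transcripts.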

How the data were processed

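Liver mRNA of 12 samples was sequenced from directional TruSeq libraries on a NovaSeq instrument, per the labels' protocols. The submitters' processing notes list the build GRCm38 and the tools STAR, HTSeq, cutadapt, FastQC 0.11.9, edgeR and DESeq2 1.28.1, without their order. Neither the annotation nor the use of strand is stated there. The deposited values are whole numbers treated as a score: read counts scaled by 1 factor per library by the authors and rounded, as the regular gaps in low values show (inferred factors 0.850 to 1.128, depth being the total divided by the factor). The lowest value is 2. GENCODE M21 named 13200 of 13267 rows.

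Genes reaching 10 in 6 or more libraries were tested with limma 3.58.1 in R 4.3.3 (trend and robust) on log2(value + 1), without covariates, with Benjamini-Hochberg adjustment over all 12720 and a threshold of 0.05. The log2 scale understates differences of low genes. The 4 members, the 9 gene lists and the tests were chosen with earlier results of these data known. Lists are described by counts, with no set test. Genes named are the members, their partners, the 4 genes most like each member and up to 5 of smallest p per list, with the exceptions stated; a gene this rule selects is not reported here. The limma fit and the permutation test were checked on simulated data. No 2 libraries of a group agreed within sampling noise (chi-square per gene 17.8 to 115.2 over 30 pairs). Promoter windows are RefSeq's. Alternatives were 2 other pseudocounts, 2 filters, 3 scalings, 3 other fits, a replicate block and each library left out. An edgeR quasi-likelihood test, planned in case the values were raw counts, was not run.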

Additional observations from a re-analysis of the deposited data

Results flagged for a closer look

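Of 124 groups of 6 livers checked (62 genes named), 3 had 1 liver far from the other 5, where chance gives about 1 in 20. Pex11a was at 3058 in control replicate 6, with the other controls at 5250 to 5967. Rdh16, one of the genes most like Cd36, was at 2420 in the same liver, with the others at 3936 to 4931. Angptl4 was at 1977 in control replicate 5, with the others at 4436 to 6550. None of the 8 groups of Pparg, Cd36, Fabp4 and Cfd met this rule.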

How the results depend on the processing

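Under 23 alternatives (22 for Cfd, which the stricter filter removed), the 4 log2 differences kept their negative sign. Pparg, Cd36 and Fabp4 did not pass over all genes in any of them, with adjusted p from 0.0617 to 0.347, 0.0731 to 0.397 and 0.0794 to 0.442 (limma). Cfd passed with array weights (−3.37, adjusted p = 0.0423, within 0.0423 to 0.363 over its alternatives). The count of genes called was 0 as reported, 139 with array weights, 66 with voom and quality weights and 11 with the replicate block. With 1 library left out it ran from 0 to 193, with 193 without 4-HPAA replicate 4 and 5 without control replicate 1, and the count of members whose groups do not overlap from 0 to 2. The causes were not tested. The replicate block changed no call of the 4 genes. Deviations of same-numbered libraries correlated at −0.18 to 0.28, with 3 of 6 over 0.1, which does not settle whether the numbers pair the libraries. No count test, such as edgeR or DESeq2, was run, since the values are not raw counts. Among 3 other scalings, the median over all genes was lowest at −0.05, with totals that leave out the top genes. At the level of Cidea, Zfp423, Itgax, Cx3cr1, Ccr2 and the lowest Cfd values, counting error is large.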
